A study of Homo sapiens with 17 samples.

Results

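The comparison was of 3 progesterone (P4) treated cultures with 3 untreated control cultures of Ishikawa cells, 6 of the 17 samples of the series, chosen by their labels alone. Ishikawa is an established endometrial adenocarcinoma cell line that carries steroid hormone receptors and serves as a stand-in for uterine epithelium. Gene expression was measured by RNA-Seq of total RNA after 24 h of treatment, and the values are read counts per gene. Another 3 cultures received the ethanol vehicle and 2 received Nap alone, and 6 cultures with PSAT1 in their labels were not analysed here because title and column name contradict each other.

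Control cultures were kept in the culture medium without any addition. P4 cultures were labelled as receiving progesterone together with Nap, a vehicle whose name is not explained in the sources used here. Vehicle control cultures were labelled with Nap and 70% ethanol, while a legend of the study on a separate dose experiment names 10% ethanol. Ethanol is named for the vehicle cultures and not for the P4 cultures, so whether the P4 cultures also received it is not known, and P4 and any solvent it came with cannot be told apart against the untreated control. The protocol in the labels lists P4 at 0.1 and 1.0 mg/ml, while the study's figure legends give 10 μg/ml, and the dose of these 3 cultures was not settled. All cultures shared a medium with charcoal-stripped serum, from which most steroids have been removed. They come from 1 cancer cell line, which limits them as a model of the endometrium, and the replicates are called biological replicates in the labels.

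Progesterone acts through the progesterone receptor (PGR), a nuclear receptor that switches the uterine epithelium from growth to differentiation and lowers its own expression. Cells under strain from misfolded protein or from amino acid shortage use another programme, the integrated stress response, in which the transcription factors ATF4 and CHOP (encoded by DDIT3) raise genes for amino acid uptake and synthesis, tRNA charging and growth arrest. Immediate early genes such as FOS and EGR1 form another group, which respond within minutes to growth factors, solvents and handling of cells, through serum response factor and MAP kinases.

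Library totals were between 12712177 and 19704493 counts in the controls and between 10786880 and 14095023 counts in the P4 cultures. The vehicle cultures had 4999521 to 13403346 counts, with vehicle replicate 1 the smallest library. Genes of the mitochondrial genome took 21.4% to 28.5% of the counts in the controls and 25.6% to 26.8% in the P4 cultures. Levels are given as CPM (counts scaled to the library total) after TMM normalization over the 11 libraries used. Epithelial markers were present in every culture. The summed level of 6 epithelial markers (EPCAM, CDH1, KRT8, KRT18, KRT19 and CLDN4) was 1231 to 1483 CPM in the controls and 955.8 to 1095 CPM in the P4 cultures. For 4 endometrial epithelial markers the sum was 244.2 to 269.6 CPM in the controls and 234.5 to 256.7 CPM with P4. PAX8 made up most of this, at a mean of 229 CPM in the controls, 219 CPM with P4 and 349 CPM in the vehicle. SOX17 followed, MUC1 was low (means of 1.76 CPM in the controls and 1.32 CPM with P4) and FOXA2 was barely detected (0.050 and 0.089 CPM). The 3 endothelial markers together reached at most 1.51 CPM in the controls and 0.382 CPM in the P4 cultures, and the 5 immune markers at most 1.13 and 0.509 CPM, with CDH5 at 0 in both groups and CD3E at 0 in both. Of the 6 stromal markers the sum was 93.7 to 160.9 CPM in the controls and 66.0 to 76.6 CPM in the P4 cultures, nearly all of it COL1A1 and COL3A1, with DCN and PDGFRB at 0 in every P4 culture. In bulk RNA, fewer cells of a kind and less RNA per cell cannot be told apart.

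In total, 12866 protein-coding genes had enough counts to be tested for P4 against control. Of these, 7558 (58.7%) had an adjusted p under 0.05 in edgeR's quasi-likelihood test and are referred to as differentially expressed genes (DEGs). There were 3889 DEGs that rose (30.2% of the genes tested) and 3669 that fell (28.5%). The median absolute change of the DEGs was 0.639 on the log2 scale, and 1734 DEGs (13.5%) changed by more than 1 log2 unit, 937 of them higher and 797 lower. Shares of gene groups given below are to be read against 30.2% higher and 28.5% lower. The 3 P4 cultures and the 3 controls did not overlap in CPM for 8337 of the 12866 genes (64.8%).

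**Figure D1:**
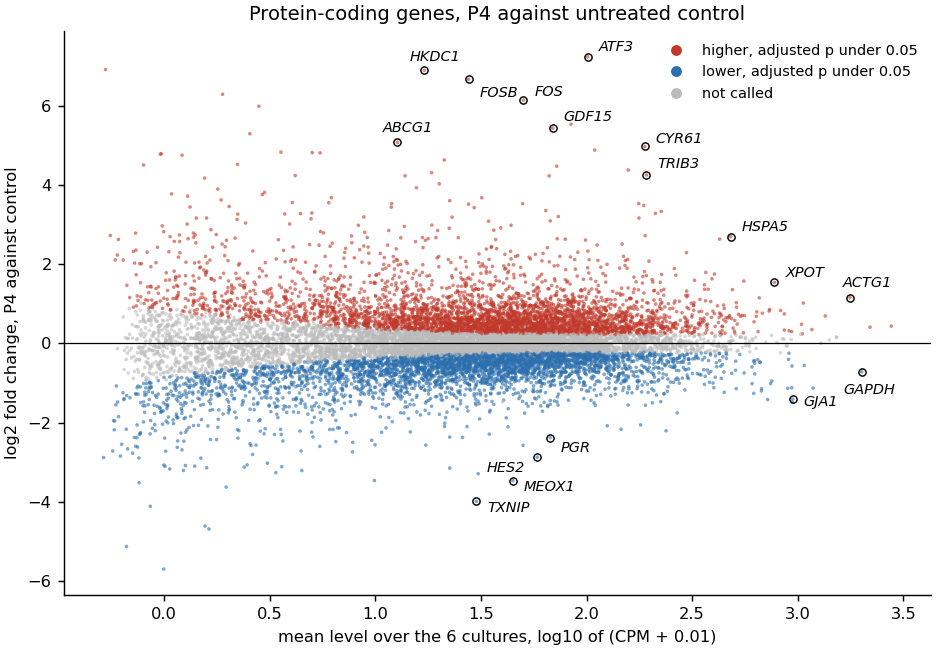
Each point is a protein-coding gene tested for P4 against untreated control (3 cultures each). The horizontal axis gives the mean level over the 6 cultures as log10 of (CPM + 0.01) and the vertical axis the log2 fold change, with red and blue for the 3889 DEGs that were higher and the 3669 that were lower, grey for genes not called, ATF3 at 7.24 and TXNIP at -3.99.

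The size of the response differed among the 3 P4 cultures. Among the 1734 DEGs beyond 1 log2 unit, P4 replicate 1 was the culture nearest to the controls for 1302 genes, P4 replicate 3 for 259 and P4 replicate 2 for 173. P4 replicate 2 was the farthest from the controls for 1203 genes. All 3 cultures lay on 1 side of the controls for 7243 of the 7558 DEGs (95.8%). The DEGs were picked by a test of these same cultures, which favours such separation. Over all protein-coding genes tested the share was 64.8%.

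The genes that rose most were stress response genes, immediate early genes and genes of sterol and glucose handling. TRIB3, a pseudokinase induced by ATF4 and CHOP that restrains AKT signalling (chromosome 20), had 20.4, 18.1 and 19.5 CPM in the controls and 310.4, 397 and 387 CPM in the P4 cultures. The log2 fold change was 4.26 (SE 0.12, adjusted p = 9.19e-15). GDF15, a stress-induced cytokine of the TGF-β family (GRCh38, chromosome 19, 18374731 to 18389176, plus strand), had 2.91, 3.34 and 3.17 CPM in the controls and 114, 147 and 145 CPM with P4, a log2 fold change of 5.44 (SE 0.14, adjusted p = 7.5e-15). For both genes the lowest P4 culture lay above the highest control, where 64.8% of all protein-coding genes tested did not overlap, in either direction. The vehicle cultures had 17.8, 17.3 and 18.6 CPM for TRIB3 and 3.37, 3.93 and 3.81 CPM for GDF15, and neither was called between vehicle and control.

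ABCG1, which exports cholesterol from cells and is a target of liver X receptors (chromosome 21, 42199689 to 42297244, plus strand), was barely detected in the controls at 0.494, 1.06 and 0.603 CPM and reached 19.8, 30.6 and 23.9 CPM in the P4 cultures (log2 fold change 5.08, SE 0.24, adjusted p = 2.06e-11). HKDC1, a hexokinase that phosphorylates glucose (chromosome 10), went from 0.275, 0.212 and 0.377 CPM in the controls to 20.6, 42.6 and 38.4 CPM with P4 (log2 fold change 6.90, SE 0.38, adjusted p = 7.78e-08). Neither gene had enough counts to be tested between vehicle and control. In the vehicle cultures ABCG1 had 0.749, 0.371 and 0.162 CPM and HKDC1 0.187, 0.371 and 0.324 CPM, all below every P4 culture. P4 replicate 1 had the lowest level of each of these 4 genes among the P4 cultures.

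**Figure D2:**
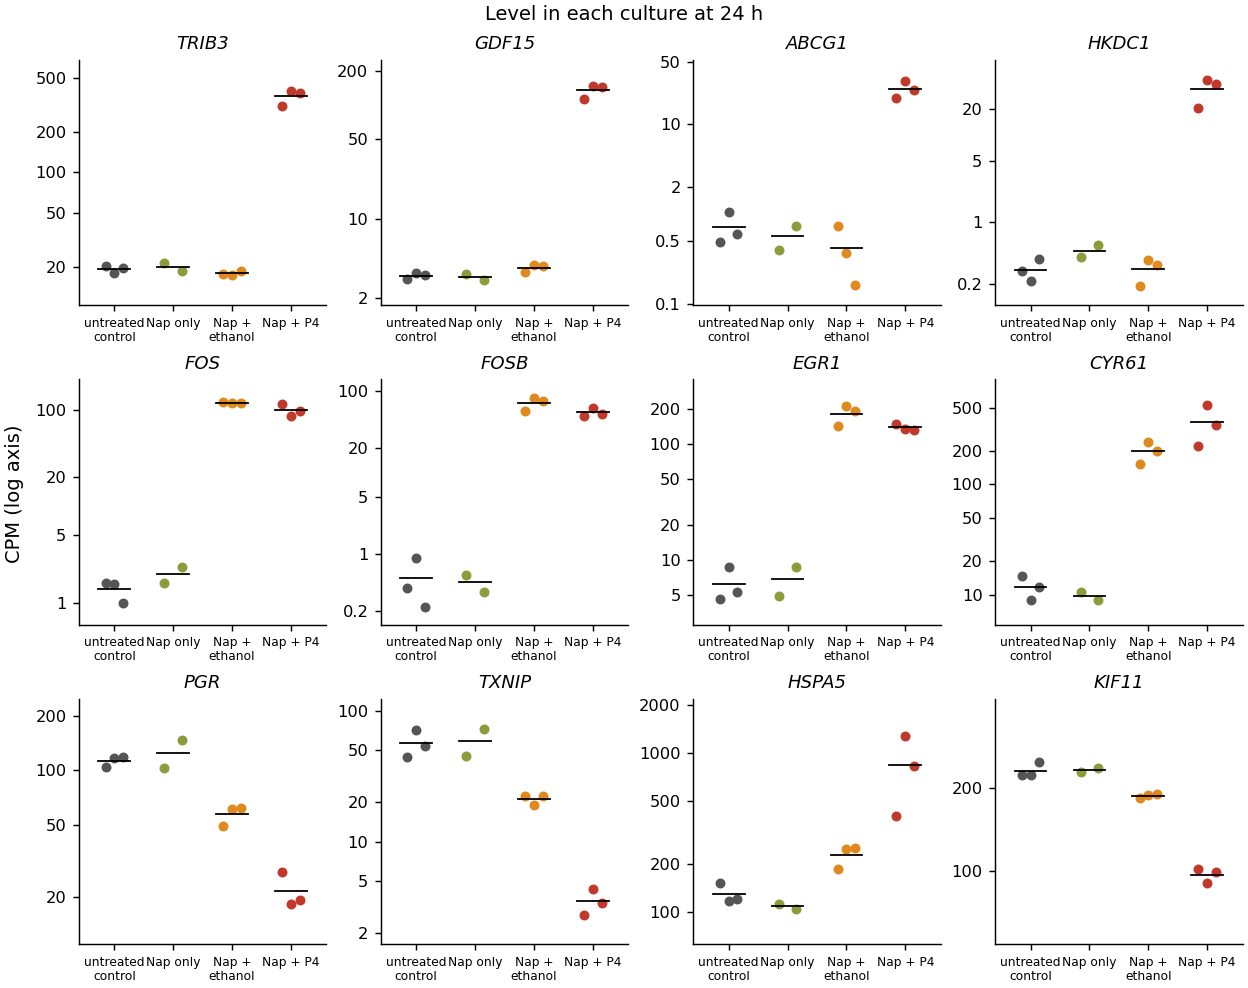
Vertical axes give the CPM of 12 genes in each culture at 24 h, on log axes that differ between panels, for untreated control (3 cultures), Nap only (2), Nap with ethanol (3) and Nap with P4 (3). Points are cultures and bars group means, and TRIB3, GDF15, ABCG1 and HKDC1 were high in the P4 cultures alone, FOS, FOSB, EGR1 and CYR61 were high in both the ethanol vehicle and the P4 cultures, and PGR and TXNIP fell in the vehicle and further with P4.

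ATF3 had the largest log2 fold change of the 8 genes named for their increase. It encodes a transcription factor that is induced both by ATF4 and as an immediate early gene. ATF3 had 1.04, 1.33 and 1.73 CPM in the controls, 9.93, 12.01 and 10.1 CPM in the vehicle cultures and 129.7, 273 and 201 CPM in the P4 cultures. The 3 groups did not overlap, which for P4 and control the rule that named ATF3 required. The log2 fold change was 7.24 (adjusted p = 2.29e-05) against control and 4.21 (adjusted p = 0.000101) against vehicle. CTGF and CYR61, secreted matricellular proteins that are classical YAP and serum response targets, were high in both the vehicle and the P4 cultures. CTGF had 4.94, 2.18 and 3.69 CPM in the controls, 79.98, 116 and 95.3 CPM with vehicle and 145, 189 and 162 CPM with P4. CYR61 had 14.8, 8.86 and 11.6 CPM in the controls, 154, 243 and 203 CPM with vehicle and 223, 529 and 346 CPM with P4. For vehicle against control the log2 fold change was 4.80 for CTGF, 4.13 for CYR61 and 3.03 for ATF3, where P4 against control gave 5.54, 4.98 and 7.24.

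The genes that fell most included regulators of metabolism, transcription factors and histones. TXNIP, an arrestin that limits glucose uptake and binds thioredoxin (chromosome 1, 145992435 to 145996600, minus strand), had 44.8, 71.2 and 54.1 CPM in the controls and 2.76, 4.33 and 3.43 CPM with P4 (log2 fold change -3.99, SE 0.20, adjusted p = 3.8e-10). MEOX1, a mesodermal homeobox transcription factor, fell from 72.9, 101 and 72.9 CPM to 10.95, 3.31 and 8.01 CPM, and LRRC17, a secreted leucine-rich repeat protein, from 12.3, 25.7 and 16.4 CPM to 2.95, 0.679 and 1.37 CPM. Each of these genes was lower in every P4 culture than in any control, which the rule that named them required. HES2, a bHLH repressor of the hairy family (chromosome 1, 6412418 to 6424670, minus strand), fell by 2.88 on the log2 scale, from 106, 103 and 99.7 CPM to 21.9, 7.302 and 12.8 CPM. GCNT2, which branches the glycan chains of the I blood group antigen, had 12.96, 15.2 and 12.5 CPM in the controls, 5.43, 6.299 and 6.23 CPM in the vehicle and 2.19, 1.78 and 2.06 CPM with P4.

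The replication-dependent histone genes HIST1H2AB and HIST1H3A, whose transcripts are made in S phase, were also among the 8 largest decreases. HIST1H2AB (chromosome 6, 26033176 to 26033568, minus strand) fell from 56.95, 55.3 and 54.9 CPM to 7.14, 4.67 and 5.19 CPM. HIST1H3A fell from 39.4, 41.2 and 40.6 CPM to 8.38, 2.29 and 3.21 CPM. Such histone genes have near-identical copies, so the assignment of reads to a single copy is uncertain. ALPP, a placental alkaline phosphatase with close paralogs, fell from 7.63, 11.3 and 9.27 CPM to 1.903, 0.849 and 1.83 CPM.

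With genes of the mitochondrial genome left out, the P4 cultures gained most CPM for ACTG1 (cytoskeletal gamma actin), XPOT (the tRNA exporter), FTL (the ferritin light chain), HSPA5 (the ER chaperone BiP) and PEG10 (an imprinted retrotransposon-derived gene). ACTG1 rose from 1173, 1096 and 1030 CPM to 2111, 2575 and 2611 CPM and XPOT from 409.8, 335 and 453 CPM to 1072, 1201 and 1180 CPM. FTL rose from 682, 802 and 633 CPM to 1112, 1622 and 1517 CPM. Again without mitochondrial genes, the largest losses were of GAPDH (a glycolytic enzyme), HSP90AB1 and HSPA8 (cytosolic chaperones), GJA1 (the gap junction protein connexin 43) and TUBA1B (alpha tubulin). GAPDH fell from 2341, 2973 and 2202 CPM to 1579, 1412 and 1528 CPM and TUBA1B from 1210, 1331 and 1166 CPM to 614, 479 and 575 CPM. GJA1 fell from 1208, 1547 and 1380 CPM to 744, 315 and 480.3 CPM (log2 fold change -1.41, adjusted p = 0.0189), with P4 replicate 1 nearest to the controls. Without control replicate 2 the adjusted p of GJA1 was 0.0516 and without P4 replicate 3 it was 0.0793. Several of these abundant genes have processed pseudogenes that share sequence, and only uniquely mapped reads were counted by the authors.

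All 20 genes of the ATF4 and CHOP list rose, against 30.2% of all genes tested, with a median log2 fold change of 2.00 where the median of all protein-coding genes was 0.01. Of these, 19 rose by more than 1 log2 unit. Besides TRIB3, GDF15 and ATF3, the list holds the transcription factors DDIT3 (log2 fold change 4.89), CEBPB (1.95), CEBPG (2.09), NUPR1 (3.61) and ATF4 itself (0.47), the smallest rise of the list. SESN2, which restrains mTORC1 when leucine is short, rose by 2.25, PPP1R15A, which directs removal of the phosphate from eIF2α, by 3.10, and CHAC1, which breaks down glutathione, by 2.04 on the log2 scale. All 20 genes were also higher in P4 than in the vehicle, with a median of 1.90, where 30.4% of all protein-coding genes were higher and 27.8% lower, the shares to read each list against in that comparison. In vehicle against control, 4 of them were higher and 4 lower (adjusted p under 0.05), beside 12.6% and 11.5% of all protein-coding genes.

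ATF4 acts at composite elements that hold the letters TGATGNAA. In 300 bases around the start of each gene (250 before and 50 after, from RefSeq on GRCh38.p14), these letters on either strand were found for 3 of the 17 list members with an entry (17.6%), against 1003 of all 27305 promoters (3.67%). CHAC1 and ATF3 are shown because both rose and hold a match, in capitals, 209 and 191 bases before the start. A match is a description of the letters and not a site of binding. Where a gene has several starts, only the first listed entry was searched, here and for the elements below. CHAC1 lies on the plus strand at chr15:40953221-40953520 and ATF3 on the plus strand at chr1:212565157-212565456.
CHAC1: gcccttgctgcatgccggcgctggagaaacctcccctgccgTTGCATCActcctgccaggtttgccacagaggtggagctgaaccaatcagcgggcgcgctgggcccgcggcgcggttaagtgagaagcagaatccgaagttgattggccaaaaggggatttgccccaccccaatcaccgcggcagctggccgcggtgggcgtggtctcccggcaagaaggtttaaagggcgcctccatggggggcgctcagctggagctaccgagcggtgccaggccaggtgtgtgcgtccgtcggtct
ATF3: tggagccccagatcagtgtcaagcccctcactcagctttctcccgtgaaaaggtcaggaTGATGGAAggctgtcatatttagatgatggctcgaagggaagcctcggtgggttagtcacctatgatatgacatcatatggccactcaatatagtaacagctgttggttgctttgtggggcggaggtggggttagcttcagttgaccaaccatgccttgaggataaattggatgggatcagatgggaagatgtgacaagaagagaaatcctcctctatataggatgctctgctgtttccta

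Genes that supply amino acids rose with them. Of 15 genes for serine, one-carbon, asparagine and proline synthesis, 11 rose and 2 fell (median log2 fold change 0.54). ASNS, asparagine synthetase, rose from 4.998, 4.03 and 5.81 CPM to 32.2, 29.9 and 26.6 CPM, and MTHFD2, the mitochondrial one-carbon enzyme, from 286, 258 and 299 CPM to 848, 797 and 844 CPM. The log2 fold changes were 2.61 (adjusted p = 2.38e-10) and 1.58 (adjusted p = 5.09e-10). PHGDH and PSAT1, the first enzymes of serine synthesis, rose by 0.30 and 0.45 on the log2 scale. The 2 that fell were SHMT1, the cytosolic serine hydroxymethyltransferase (-0.75), and ALDH18A1, which starts proline synthesis (-0.62).

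Of 20 cytosolic aminoacyl-tRNA synthetases, which charge tRNAs with their amino acids, 12 rose and 2 fell. SARS, the seryl-tRNA synthetase, rose by 1.55 and WARS, the tryptophanyl-tRNA synthetase, by 1.29 on the log2 scale. KARS (-0.33) and QARS (-0.25), for lysine and glutamine, fell. QARS was not called without control replicate 2, P4 replicate 2 or P4 replicate 3. KARS was as low in the vehicle as in the P4 cultures, at 111, 113 and 114 CPM and 110.4, 124 and 119 CPM. Against the vehicle, 15 of the 20 synthetases were higher and 1 was lower.

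Among 15 amino acid transporters, 11 rose and 2 fell. SLC43A1, which carries large neutral amino acids, rose from 5.77, 5.78 and 4.15 CPM to 35.02, 30.99 and 34.4 CPM, and SLC6A9, a glycine transporter, from 13.5, 9.34 and 9.65 CPM to 37.7, 34.6 and 33.4 CPM. The taurine transporter SLC6A6 moved the other way, from 73.1, 66.3 and 67.9 CPM to 17.7, 13.2 and 16.8 CPM (log2 fold change -2.11, adjusted p = 1.52e-10), and SLC43A2, another carrier of large neutral amino acids, fell by 1.31 on the log2 scale. The P4 cultures lay outside the range of the controls for all 4, which were named for their low adjusted p. The same was so for 64.8% of all protein-coding genes tested.

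Chaperones of the endoplasmic reticulum (ER) and genes of ER-associated degradation changed unevenly. Of 20 genes, 11 rose and 1 fell, with a median of 0.79. XBP1, the transcription factor that IRE1 activates by splicing, rose from 123, 120 and 115 CPM to 270, 326 and 302 CPM. SEL1L, the scaffold of the HRD1 ubiquitin ligase, rose from 204, 206 and 227 CPM to 456, 601 and 565 CPM. ERN1, which encodes IRE1 itself, rose by 3.36 and HERPUD1, a component of the degradation complex, by 3.34 on the log2 scale. The chaperone and disulphide isomerase genes HSP90B1 (0.15), CALR (-0.068), CANX (0.09), PDIA3 (0.041), PDIA4 (0.0092) and PDIA6 (-0.056) were not called, and CRELD2 fell by 0.49.

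HSPA5, the main chaperone of this compartment, varied widely between the P4 cultures. It had 152, 117 and 121 CPM in the controls, 187, 249 and 252 CPM in the vehicle and 399, 1279 and 819.7 CPM in the P4 cultures. The lowest P4 culture, replicate 1, lay above every vehicle culture, and the log2 fold change was 2.70 (SE 0.50, adjusted p = 0.0107). The ER stress response element, searched on either strand as CCAAT and CCACG with 9 bases of any kind between them, was found in 6 of 19 list members with a promoter entry (31.6%) and in 22 of all 27305 promoters (0.0806%). The members with a match were HSPA5, HSP90B1, CALR, CANX, CRELD2 and XBP1, of which HSPA5 and XBP1 rose, CRELD2 fell and the others were not called. The promoter of HSPA5, minus strand at chr9:125241294-125241593, is shown for this element, in capitals.
HSPA5: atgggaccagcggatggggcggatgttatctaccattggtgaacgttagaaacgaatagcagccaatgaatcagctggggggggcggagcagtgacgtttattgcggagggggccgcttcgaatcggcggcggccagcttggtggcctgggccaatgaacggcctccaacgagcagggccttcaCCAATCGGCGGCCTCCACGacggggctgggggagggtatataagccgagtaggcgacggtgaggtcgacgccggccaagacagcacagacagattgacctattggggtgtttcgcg

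Cytosolic and mitochondrial heat shock chaperones went down more often than up, with 3 of 15 higher and 7 lower. HSPA9, the mitochondrial HSP70, rose from 422, 391.9 and 419 CPM to 771, 1014 and 924 CPM, and the heat shock factor HSF1 rose by 0.58 on the log2 scale. DNAJA1, a co-chaperone of HSP70, fell from 168, 156 and 174 CPM to 68.5, 67.1 and 66.7 CPM and HSPE1, the partner of mitochondrial HSP60, from 56.8, 50.8 and 52.7 CPM to 20.5, 14.8 and 14.1 CPM. HSP90AB1 fell by 1.13 and HSPA8 by 1.12 on the log2 scale. The heat-inducible HSPA1A (-0.093) and HSPA1B (-0.02), which have near-identical coding sequences, were not called against control.

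Genes of cholesterol synthesis fell while sterol export genes rose. Of 25 synthesis and uptake genes, 15 fell and 4 rose (median -0.48), and of 11 liver X receptor targets and sterol export genes, 9 rose and 1 fell (median 0.67). NSDHL, which removes a methyl group from sterol intermediates, fell from 28.2, 29.6 and 25.5 CPM to 9.61, 11.04 and 11.7 CPM and ACAT2, which makes acetoacetyl-CoA, from 128, 132 and 126 CPM to 72.3, 59.8 and 62.5 CPM. SREBF2, the master regulator of the pathway, rose by 0.45 and STARD4, a cholesterol carrier, by 0.35 on the log2 scale. Without control replicate 1, 2 genes of the list rose.

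Next to ABCG1, the export gene ABCA1, which loads cholesterol onto apolipoprotein A-I, rose by 3.44 on the log2 scale against control and by 4.49 against vehicle, and was lower in vehicle than in control (-1.04). MYLIP, an LXR-induced ubiquitin ligase, rose from 16.9, 15.2 and 16.8 CPM to 38.2, 48.5 and 37.9 CPM, and the receptor gene NR1H2 rose by 0.87. LPCAT3, a phospholipid remodelling enzyme of the same list, fell by 0.55. Of 14 genes of fatty acid synthesis and lipid storage, 4 rose and 5 fell. SCD, which desaturates fatty acids, rose from 541, 641 and 616 CPM to 915, 1172 and 1085 CPM and PNPLA2, a triglyceride lipase, from 12.1, 12.9 and 10.3 CPM to 21.5, 23.5 and 23.96 CPM. PLIN3, a lipid droplet protein, fell by 1.24 and ELOVL6, a fatty acid elongase, by 1.22 on the log2 scale.

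PGR, the receptor of the added hormone (chromosome 11, 101029624 to 101130524, minus strand), fell. It had 104, 117 and 118 CPM in the controls, 48.9, 60.8 and 62.3 CPM in the vehicle and 27.3, 18.2 and 19.2 CPM in the P4 cultures, and the 3 groups did not overlap. The log2 fold change was -2.38 (SE 0.13, adjusted p = 2.97e-10) against control and -1.44 (adjusted p = 4.96e-06) against vehicle. Of 11 steroid and membrane progestin receptors tested, 3 rose and 3 fell. NR3C1, the glucocorticoid receptor, rose from 52.6, 53.8 and 63.9 CPM to 98.5, 135 and 123 CPM and NR3C2, the mineralocorticoid receptor, by 0.40 on the log2 scale. PGRMC1, a membrane-associated progesterone binding protein, fell from 190.4, 207 and 216 CPM to 129.6, 92.3 and 110.2 CPM. ESR1, the oestrogen receptor, fell by 0.32 on the log2 scale.

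Genes that progestins and glucocorticoids are known to induce mostly rose against control, with 10 of 15 tested genes higher and 3 lower (median 0.76). Against vehicle 8 were higher and 4 lower (median 0.42), and 3 were higher and 1 lower in vehicle than in control. ERRFI1, an inhibitor of EGF receptor signalling, rose from 22.4, 17.2 and 22.8 CPM to 89.2, 121 and 119 CPM. TSC22D3, the glucocorticoid-induced leucine zipper (chromosome X, 107713221 to 107777342, minus strand), rose from 11.5, 14.96 and 12.7 CPM to 54.3, 43.6 and 51.6 CPM. KLF9, a cofactor of PGR, rose by 1.35 and FKBP5, a co-chaperone of steroid receptors, by 0.76 on the log2 scale. Those that fell against control were ALPP, GREB1 (-0.72), a cofactor of the oestrogen receptor, and HSD11B2 (-1.26), which inactivates cortisol. PAEP, IHH, ZBTB16, HSD17B2 and ALPPL2, which are used as progestin response markers in other endometrial models, had too few counts to be tested. The palindromic hormone response element, searched as GNACA and TGTNC with 3 bases between them, was in none of the 14 promoters of this list with an entry and in 0.388% of all promoters.

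Of 16 genes linked to endometrial receptivity, 8 rose and 4 fell. CD55, which protects cells from complement (chromosome 1, 207321376 to 207386804, plus strand), rose from 21.5, 22.2 and 22.9 CPM to 124, 146 and 139 CPM (log2 fold change 2.63, adjusted p = 1.23e-12). ITGB3, an integrin subunit of the implantation window, rose from 22.3, 19.5 and 19.2 CPM to 33.7, 35.7 and 38.2 CPM, and the cytokine LIF by 1.17 on the log2 scale. HOXA10, a homeobox gene of uterine patterning, fell from 33.6, 33.9 and 34.1 CPM to 21.8, 17.6 and 21.1 CPM and WNT7A, an epithelial Wnt ligand, from 45.6, 41.9 and 42.6 CPM to 29.98, 23.8 and 25.6 CPM. The P4 and control cultures did not overlap for CD55, ITGB3, HOXA10 or WNT7A, which were named for their low adjusted p. Among all protein-coding genes tested, 64.8% did not overlap, in either direction.

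Cell cycle genes fell in nearly every case. Of 26 genes of DNA replication and S phase, 21 fell and none rose (median -0.77), against 28.5% lower among all genes. Of 23 genes of mitosis and the kinetochore, 22 fell and none rose (median -0.79). MCM4, a subunit of the replicative helicase, fell from 297, 308 and 313 CPM to 134, 109 and 126 CPM, and PCNA, the sliding clamp, from 179, 196 and 185 CPM to 81.7, 65.6 and 73.7 CPM. KIF11, the kinesin that separates spindle poles, fell from 222, 224 and 249 CPM to 102, 89.8 and 98.7 CPM and KIF20A, a cytokinesis kinesin, from 146, 159 and 156 CPM to 67, 46.3 and 55.5 CPM. For each of these 4 genes every P4 culture was below every vehicle culture, and every vehicle culture below every control. Among all protein-coding genes tested, P4 and vehicle did not overlap, in either direction, for 64.6%, and vehicle and control for 40.8%. Between vehicle and control MCM4 was not called (adjusted p = 0.0816 in edgeR's quasi-likelihood test). The genes that were not called were CDC6, POLE, E2F1, TYMS and CDT1 of the first list and CENPA of the second.

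Promoters of the cell cycle genes hold known elements. The E2F letters TTTCCCGC were found on either strand in 8 of 21 replication genes with an entry (38.1%) and in 1.66% of all promoters, and TTTGGCGC in 7 of 21 (33.3%) and 0.659% of all. The cell cycle homology region (CHR), TTTGAA, was in 14 of 20 mitosis genes (70%) and 15.4% of all promoters. Genes that were not called held matches too, CDT1 and TYMS for TTTCCCGC, CDC6, E2F1 and POLE for TTTGGCGC and CENPA for the CHR. PCNA (minus strand, chr20:5126573-5126872) is shown with its E2F match and KIF11 (plus strand, chr10:92592880-92593179) with its CHR match, both on the opposite strand of the sequence printed and in capitals.
PCNA: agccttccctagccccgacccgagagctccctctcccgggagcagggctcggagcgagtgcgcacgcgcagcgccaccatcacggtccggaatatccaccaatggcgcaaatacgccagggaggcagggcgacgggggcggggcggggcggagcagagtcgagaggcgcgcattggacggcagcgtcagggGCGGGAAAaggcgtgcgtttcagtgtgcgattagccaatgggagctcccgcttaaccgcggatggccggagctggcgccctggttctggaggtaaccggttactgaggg
KIF11: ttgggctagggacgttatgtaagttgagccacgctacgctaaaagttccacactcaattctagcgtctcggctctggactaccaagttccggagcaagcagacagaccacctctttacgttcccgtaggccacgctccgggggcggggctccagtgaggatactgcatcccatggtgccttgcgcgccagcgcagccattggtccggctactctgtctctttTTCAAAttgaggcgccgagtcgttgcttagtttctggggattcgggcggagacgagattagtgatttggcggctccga

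Regulators of G1 changed in both directions, with 5 of 15 higher and 5 lower, shares near those of all genes. CDKN1A, the inhibitor p21 (chromosome 6, 36676460 to 36687339, plus strand), rose from 49.5, 81.1 and 52.02 CPM to 200.1, 240.3 and 237 CPM (log2 fold change 1.90, adjusted p = 1.31e-06). CDKN1B, the inhibitor p27, rose from 75.1, 89.9 and 79.98 CPM to 122, 167 and 153 CPM. CCND1, cyclin D1 (chromosome 11, 69641087 to 69654474, plus strand), fell from 381, 275 and 338 CPM to 135, 96.96 and 123 CPM, and the CDK4 inhibitor CDKN2C by 1.36 on the log2 scale. MYC rose by 0.86 in the same list.

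Of 18 genes of p53 and death receptor signalling, 11 rose and 3 fell against control (median 0.51). Against vehicle 9 were higher and 2 lower (median 0.21), and 4 were higher and 1 lower in vehicle than in control. TNFRSF10B, the TRAIL receptor DR5 and a CHOP target, rose from 83.04, 84.5 and 83.98 CPM to 251, 311 and 314 CPM, and PMAIP1, the BH3-only protein NOXA, from 29.1, 27.8 and 28.6 CPM to 93.4, 82.4 and 97.4 CPM. GADD45A (3.43) and GADD45B (3.53), growth arrest genes, and BBC3 (2.35), the BH3-only protein PUMA, rose by more than 2 log2 units. CASP8, the initiator caspase of death receptors, fell by 0.80 and TP53INP1, a p53 target, by 0.56 on the log2 scale.

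Antioxidant and iron genes rose in 13 of 17 cases and fell in 2 (median 1.02), and without P4 replicate 3 none fell. HMOX1, which degrades haem, rose from 2.47, 2.23 and 2.64 CPM to 10.6, 13.1 and 11.98 CPM. The ferritin heavy chain FTH1 rose by 2.64, OSGIN1 by 2.67 and the autophagy receptor SQSTM1 by 1.75 on the log2 scale. TFRC (-0.26), the transferrin receptor, fell, and was not called without control replicate 3, P4 replicate 2 or P4 replicate 3. Of 27 autophagy and lysosome genes, 17 rose and 3 fell. MAP1LC3B, the autophagosome marker LC3B, rose from 19.2, 17.9 and 15.9 CPM to 54.6, 72.9 and 65.9 CPM, with 29.97, 34.2 and 36.5 CPM in the vehicle, and WIPI1, which acts early in autophagosome formation, from 11.2, 11.9 and 10.9 CPM to 33.7, 50.6 and 43.9 CPM. GLA, a lysosomal galactosidase, and ATP6V0D1, a proton pump subunit, fell by 0.62 and 0.53.

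Glycolytic enzymes fell while hexokinases rose. Of 21 genes of glycolysis and glucose uptake, 10 fell and 6 rose. LDHA, lactate dehydrogenase, fell from 264, 332 and 258 CPM to 98.3, 93.6 and 94.3 CPM and PKM, pyruvate kinase, from 1035, 1173 and 944 CPM to 414, 358 and 395 CPM. PGK1 (-1.27), PGAM1 (-1.23), TPI1 (-1.12) and ENO1 (-0.95) also fell. HKDC1, HK2 (0.97) and HK1 (0.33), which carry out the first step, rose, as did SLC2A1 (0.37), the glucose transporter GLUT1. Of the 21 genes, 10 were lower in the vehicle than in the controls.

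Nuclear genes of the respiratory chain fell in 18 of 24 cases and rose in none (median -0.46). ATP5MC1, the ring subunit of ATP synthase, had 39.8, 36.1 and 35.7 CPM in the controls, 24.4, 23.7 and 24.8 CPM in the vehicle and 13.5, 10.4 and 11.1 CPM with P4. NDUFB3, a complex I subunit, had 30.4, 37.3 and 31.96 CPM, 21.7, 22.5 and 24.2 CPM and 16.4, 11.4 and 13.1 CPM in that order of groups. The vehicle lay between the others for both genes. Ribosome biogenesis genes fell in 11 of 21 cases and rose in 1. NOP56, a snoRNP protein, fell by 0.65 and NCL, nucleolin, by 0.68 on the log2 scale. UTP15 (0.28) was the member that rose, and its P4 and control cultures overlapped; its call was lost without control replicate 1 or 2 or P4 replicate 2 or 3. Without control replicate 1, 7 members of this list fell.

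Of 14 interferon-stimulated genes tested, 7 fell, all by more than 1 log2 unit, and 2 rose (median -0.80). Against vehicle 5 were lower and 2 higher (median -0.28), and 4 were lower in vehicle than in control. IFIT1, an antiviral RNA-binding protein, fell from 7.03, 8.76 and 8.29 CPM to 2.38, 1.78 and 1.83 CPM, with 4.5, 4.97 and 4.86 CPM in the vehicle. SAMD9, an antiviral factor, had 1.21, 1.65 and 0.980 CPM in the controls and 0.0952, 0 and 0 CPM in the P4 cultures, at least 5.31-fold lower when the P4 group is set at a floor of 3 counts per library. Both are low, and with a filter of 10 counts in every sample 3 genes of the list were lower. IRF1 (1.06) and STAT2 (0.35), transcription factors of the pathway, rose, and STAT2 was not called against Nap alone (adjusted p = 0.0643). The interferon-stimulated response element, searched on either strand as GAAA and GAAA with 2 bases between them, was in 10 of 16 promoters (62.5%) and 3.65% of all. These include the promoters of IFI27, OAS3 and IFIH1, which had too few counts to be tested. The IFIT1 promoter (plus strand, chr10:89392373-89392672) is shown with its 2 matches, 116 and 103 bases before the start, in capitals and on the opposite strand.
IFIT1: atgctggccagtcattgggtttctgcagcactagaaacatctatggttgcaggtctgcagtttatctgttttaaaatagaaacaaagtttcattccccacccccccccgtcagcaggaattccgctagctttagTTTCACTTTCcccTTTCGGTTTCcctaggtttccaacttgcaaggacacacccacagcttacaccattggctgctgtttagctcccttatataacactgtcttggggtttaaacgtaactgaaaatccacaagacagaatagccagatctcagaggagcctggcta

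Of 8 genes of MHC class I presentation tested, HLA-C (0.43, adjusted p = 0.0416) was the 1 called, and this call was lost in DESeq2 (adjusted p = 0.0906) and on leaving out any 1 culture other than control replicate 2. Of 6 metallothionein and zinc transporter genes, the zinc exporter SLC30A2 rose from 0.1098, 0 and 0.0754 CPM to 1.14, 2.55 and 1.83 CPM (at least 9.88-fold higher with the controls set at 3 counts per library), the importer SLC39A10 fell by 0.98, and MT1X fell by 0.83 on the log2 scale. Without control replicate 1 the adjusted p of MT1X was 0.066.

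Surface and junction genes changed in both directions. MUC16, a large membrane mucin of the endometrial surface (chromosome 19, 8848844 to 8981342, minus strand), had 7.96, 14.8 and 10.3 CPM in the controls, 13.3, 23.3 and 22.8 CPM in the vehicle and 3.14, 2.63 and 1.76 CPM with P4. Of 5 mucins tested, MUC16, MUC20 (-1.86) and MUC5B (-1.62) fell and MUC15 (1.07) rose. MUC15 and MUC20 had few counts, and with a filter of 10 counts in every sample 1 mucin fell and 0 rose. MUC1, a membrane mucin of the receptive endometrium, had a log2 fold change of -0.43 and was not called. Of 16 genes of tight junctions and polarity, 7 rose and 4 fell. CLDN1 rose from 40.9, 23.9 and 38.2 CPM to 180.1, 187 and 203 CPM while CLDN4 fell from 68.9, 85.4 and 60.9 CPM to 37.2, 27.9 and 29.7 CPM, both claudins that seal tight junctions. PARD3, a polarity scaffold, rose by 1.03 and F11R, a junctional adhesion molecule, fell by 0.50.

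In the Notch pathway 8 of 18 genes rose and 4 fell against control (median 0.18). Against vehicle 6 were higher and 7 lower (median 0.04), and 6 were higher and 1 lower in vehicle than in control. HES6, a HES-family protein that antagonizes HES1, rose from 27.5, 34.6 and 30.5 CPM to 269, 397 and 361 CPM (log2 fold change 3.49, adjusted p = 9.22e-12). LFNG, which adds sugars to Notch receptors, fell from 4.67, 7.801 and 5.88 CPM to 0.857, 0.509 and 0.534 CPM, and the ligand JAG2 from 29.1, 31.1 and 25.3 CPM to 15.04, 14.2 and 13.6 CPM. In the vehicle JAG2 was higher than in the controls, at 45.3, 47.4 and 41.4 CPM. NOTCH1 fell by 0.76 and the ligand JAG1 rose by 1.11 on the log2 scale. Of 9 genes of ethanol and aldehyde metabolism, 3 rose and 3 fell. ALDH1A2 (1.57) and ALDH1A3 (0.68), which make retinoic acid, rose, while ALDH1B1 (-0.70) and ALDH3A1 (-0.92), which oxidize other aldehydes, fell.

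**Figure D3:**
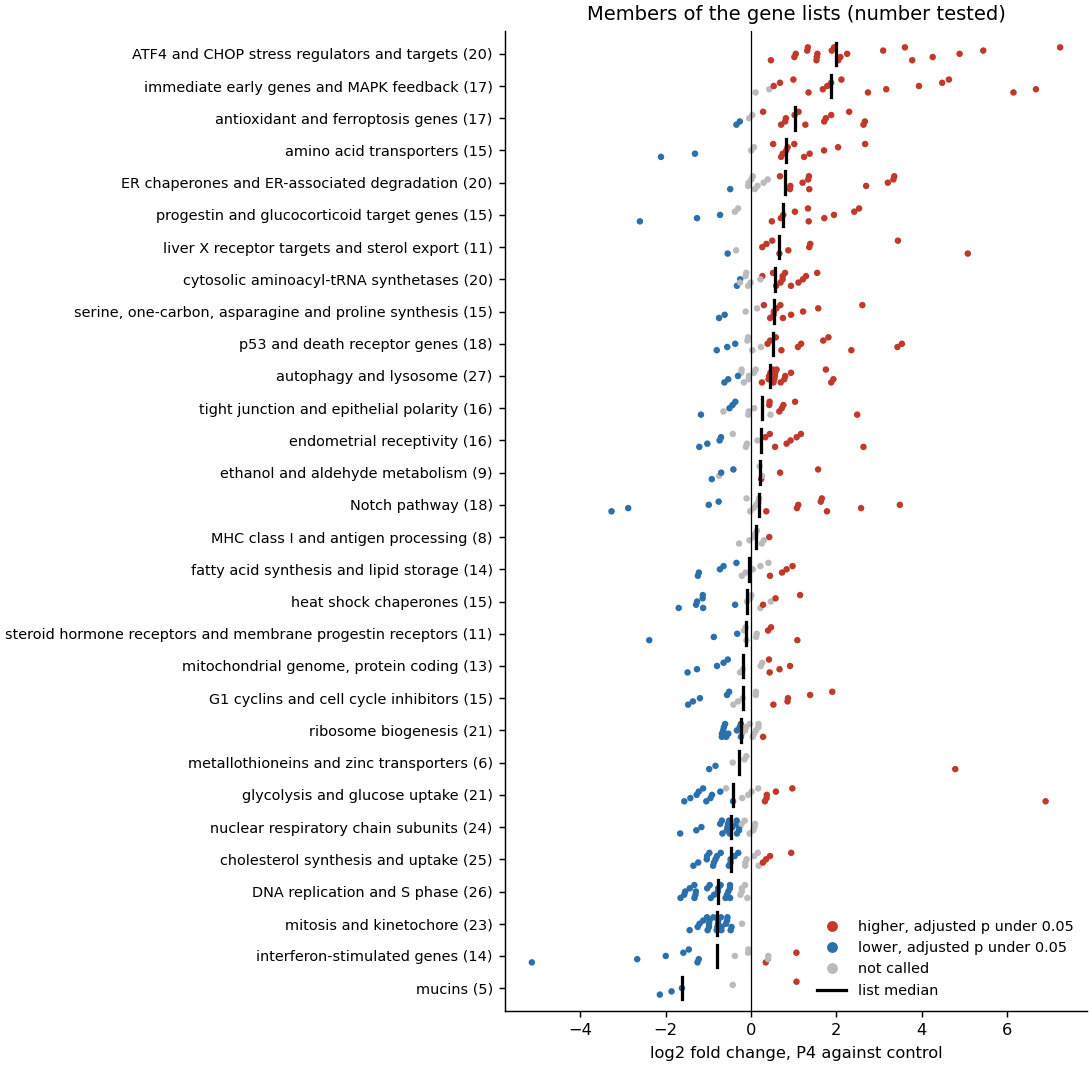
Each point is a tested member of 1 of 30 gene lists, placed by its log2 fold change for P4 against control on the horizontal axis, with the number tested after the name of the list. Red and blue points passed the test and black bars are list medians, which run from 2.00 for the ATF4 and CHOP list to -1.62 for the mucins.

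Among genes that do not code for protein, more fell than rose in the largest classes. Of 594 antisense RNA genes tested, 64 rose and 236 fell, and of 551 lincRNA genes 89 rose and 174 fell. Of 1371 processed pseudogenes, 162 rose and 324 fell. The strand setting of the authors' counting is not given in the sources used here, so the reads of an antisense gene and of its partner may not be separate, and pseudogenes share sequence with their parent genes. Counting all 16620 genes tested, 4461 rose (26.8%) and 4651 fell (28%), 54.8% in all, and 2489 (15%) passed 1 log2 unit.

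The second question was how these changes depend on the reference. The changes of P4 against control and against vehicle share the same P4 cultures, and their difference is the change of vehicle against control, so this last comparison is the test of the difference. For vehicle against control, 3089 of 12855 protein-coding genes (24%) were called, 1616 higher and 1473 lower, and 143 of them (1.11%) beyond 1 log2 unit, 116 higher and 27 lower. The count of 3089 was 1620 without vehicle replicate 2 and 1563 without vehicle replicate 3. Among 16673 genes of all kinds, 356 (2.14%) were called beyond 1 log2 unit. Against vehicle, P4 gave 7487 DEGs of 12854 (58.2%), and 8774 of 16540 genes of all kinds (53%). The 2 cultures with Nap alone had no DEG against control among 17166 genes of all kinds by edgeR, with 217 genes at an unadjusted p under 0.05, and none by DESeq2. Against these 2 Nap cultures, P4 gave 7052 protein-coding DEGs (54.3%).

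In all, 12636 protein-coding genes were tested in the 3 comparisons, and 3065 of them were called in vehicle against control. Among these, 844 genes were DEGs for P4 against control and not against vehicle, with the vehicle moved in the same direction as P4 (451 higher and 393 lower). Another 659 genes were called against vehicle and not against control (340 higher and 319 lower in the vehicle). For 45 genes P4 was called in opposite directions against the 2 references, 40 of them higher in the vehicle than in the controls and 5 lower. The 659 became 432, 310 and 287 without vehicle replicates 1, 2 and 3, and the 45 became 24 with DESeq2, 21 and 24 without vehicle replicates 2 and 3, and 16 without P4 replicate 3. A further 1179 genes were called in all 3 with P4 changed in 1 direction. For 867 of those the vehicle had moved the same way as P4, which makes the change against control the larger one, and for 312 it had moved the other way. Of the 937 genes that rose by more than 1 log2 unit against control, 837 were tested in vehicle against control and 271 were also higher there. Of the 797 that fell as much, 796 were tested and 186 were also lower there.

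**Figure D4:**
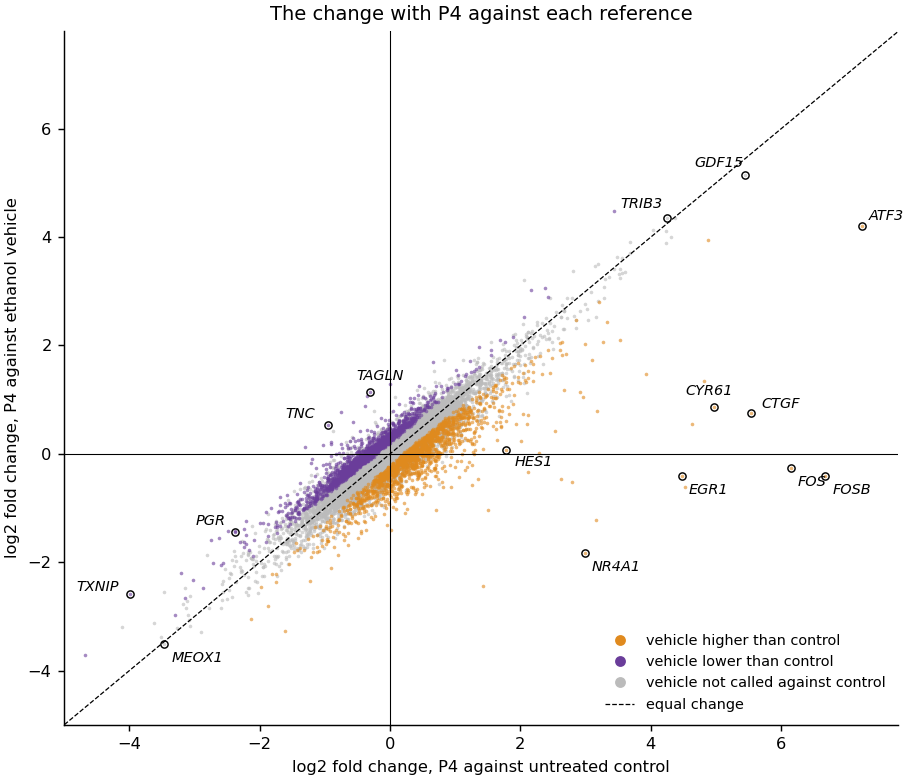
Each point is 1 of 12636 protein-coding genes, with the log2 fold change of P4 against untreated control on the horizontal axis and of P4 against ethanol vehicle on the vertical axis, both from the same P4 cultures. Orange and purple mark genes higher or lower in vehicle than in control by the test of that difference, and the dashed line marks equal changes. TRIB3, GDF15 and MEOX1 lie near the line, while FOS, FOSB, EGR1 and NR4A1 lie far to the right and below 0 on the vertical axis.

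Of the 30 lists, the immediate early genes had the largest median difference between vehicle and control (1.21 on the log2 scale). Of 17 genes of this group and of MAP kinase feedback, 15 rose and none fell against control (median 1.88), but against vehicle 10 were higher and 5 lower (median 0.56), and 9 were higher in vehicle than in control. FOS, a subunit of AP-1, had 1.59, 1.54 and 0.980 CPM in the controls, 1.59 and 2.32 CPM with Nap alone, 122, 118 and 117 CPM in the vehicle and 115, 85.8 and 96.6 CPM with P4. Its log2 fold change was 6.15 (adjusted p = 9.19e-15) against control and -0.27 (adjusted p = 0.0342) against vehicle. FOSB, its paralog, had 0.385, 0.902 and 0.226 CPM in the controls, 56.6, 81.6 and 75.1 CPM in the vehicle and 48.9, 62.3 and 53.03 CPM with P4. Controls and Nap cultures were low and the vehicle and P4 cultures were high without exception in both genes.

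EGR1, a zinc finger transcription factor, had 4.61, 8.703 and 5.28 CPM in the controls, 4.93 and 8.73 CPM with Nap alone, 143, 209.8 and 191 CPM in the vehicle and 148, 134 and 132 CPM with P4. Against vehicle its log2 fold change was -0.41 (adjusted p = 0.0081), and 1 P4 culture lay above 1 vehicle culture. NR4A1, an orphan nuclear receptor, had 4.39, 4.19 and 3.85 CPM in the controls, 141, 111 and 96.9 CPM in the vehicle and 52.5, 21.6 and 24.6 CPM with P4, so that every P4 culture lay between the controls and the vehicle. Serum response factor binds the CArG box, which was found in 1 of the 11 promoters of this list with an entry (9.09%), that of EGR1, and in 351 of all promoters (1.29%). The EGR1 promoter (plus strand, chr5:138465229-138465528) is shown with its 2 matches, 105 and 83 bases before the start, in capitals.
EGR1: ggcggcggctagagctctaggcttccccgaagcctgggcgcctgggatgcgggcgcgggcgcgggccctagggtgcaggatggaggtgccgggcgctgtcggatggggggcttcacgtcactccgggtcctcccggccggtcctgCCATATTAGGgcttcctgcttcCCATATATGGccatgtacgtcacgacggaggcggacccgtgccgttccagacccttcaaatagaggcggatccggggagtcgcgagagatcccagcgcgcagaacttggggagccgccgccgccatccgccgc

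Several genes reached with the vehicle about the level they had with P4. HES1, the Notch-responsive repressor, had 44.4, 48.98 and 46.4 CPM in the controls, 121, 174 and 152 CPM in the vehicle and 157, 165 and 153 CPM with P4, a log2 fold change of 1.78 against control and 0.07 (adjusted p = 0.58) against vehicle. ZFP36, which destabilizes AU-rich mRNAs, had 3.35, 3.29 and 2.94 CPM, 15.9, 14.8 and 15.4 CPM and 14.1, 15.5 and 16.7 CPM in that order, and DUSP1, a MAP kinase phosphatase, 1.98, 1.96 and 1.58 CPM, 6.37, 9.78 and 7.04 CPM and 9.33, 12.9 and 9.77 CPM. PEG10, 1 of the 5 genes that gained most CPM with mitochondrial genes left out, had 1639, 1453 and 1548 CPM in the vehicle against 995, 1110 and 1004 CPM in the controls and 1372, 1917 and 1690 CPM with P4. CYR61 was not called between P4 and vehicle (0.86, adjusted p = 0.0969), where P4 and vehicle cultures overlapped. A p that misses the threshold does not show that P4 and vehicle were equal.

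Genes that were as low in the vehicle as with P4 included DHRS3, which reduces retinal, with 30.9, 24.9 and 27.4 CPM in the controls, 12.9, 10.6 and 12.8 CPM in the vehicle and 16.4, 11.4 and 12.6 CPM with P4. DDX60, an antiviral helicase, had 8.13, 9.39 and 8.44 CPM in the controls, 4.68, 4.52 and 4.86 CPM in the vehicle and 4.66, 4.5 and 4.58 CPM with P4. PHF7 (-0.66 against control, -0.82 for vehicle against control) and MRPL46, a mitochondrial ribosomal protein (-0.46 and -0.86), had smaller differences. For MRPL46 the adjusted p of P4 against control was 0.0416, and 0.128 in DESeq2, and the call was also lost without control replicate 1 or 3 or P4 replicate 1 or 3.

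Other genes were called between vehicle and control and not between P4 and control. TAGLN, the actin-binding protein transgelin (chromosome 11, 117199321 to 117204782, plus strand), had 61.5, 44.1 and 51.7 CPM in the controls, 18.5, 20.2 and 18.2 CPM in the vehicle and 34.3, 48.4 and 43.4 CPM with P4. The log2 fold change was 1.14 (adjusted p = 1.04e-05) against vehicle and -0.30 (adjusted p = 0.0642) against control. FOXD1, a forkhead factor, was also lowest in the vehicle, with 27.3, 20.7 and 24.7 CPM in the controls, 11.6, 14.9 and 14 CPM in the vehicle and 25.6, 24.9 and 28.2 CPM with P4. PRSS23, a serine protease, and CLK4, a splicing kinase, were lower in the vehicle than in the controls by 0.73 and 0.69 on the log2 scale. BCORL1, a transcriptional corepressor, and KSR2, a scaffold of the RAF pathway, were higher in the vehicle than in the controls (1.13 and 1.26) and not called between P4 and control.

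TNC, the matrix protein tenascin C, was among the 5 genes that P4 changed in opposite directions with a lower level in the vehicle. It had 254, 224 and 227 CPM in the controls, 85.8, 81.4 and 81.9 CPM in the vehicle and 119.5, 115 and 127 CPM with P4. Without overlap, P4 lay below the controls (-0.95, adjusted p = 1.55e-07) and above the vehicle (0.53, adjusted p = 3.45e-05). COL12A1, a fibril-associated collagen, had the same order with 351, 379.7 and 394 CPM in the controls, 196, 221 and 225 CPM in the vehicle and 268, 308 and 299 CPM with P4. EME1, a subunit of a DNA structure-specific nuclease, and TNNC1, a troponin subunit, followed it at lower levels, with -0.29 (adjusted p = 0.0473) and -0.57 against control and 0.42 and 0.58 against vehicle. The call of EME1 against control was lost in DESeq2 (adjusted p = 0.142) and on leaving out any 1 of the 6 cultures, and P4 against Nap alone was not called for EME1 (adjusted p = 0.136) or TNNC1 (adjusted p = 0.157).

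The mitochondrial genome gave different pictures against the 2 references. Of its 13 protein-coding genes, 4 rose and 5 fell against control, none rose and 9 fell against vehicle, and 8 were higher in vehicle than in control. MT-ND4, a complex I subunit (mitochondrial genome, 10760 to 12137), had 317, 405 and 351 CPM in the controls, 530.3, 886 and 881 CPM in the vehicle and 520.2, 871 and 611 CPM with P4. MT-ND5, another complex I subunit, had 212, 295 and 224 CPM, 404, 693 and 707 CPM and 232, 368 and 246 CPM in that order, and MT-ND2 rose with vehicle by 1.29 on the log2 scale and had 0.26 with P4 against control. MT-CO3, a cytochrome c oxidase subunit, did not share this order, with 1271, 1594 and 1301 CPM, 1312, 1582 and 1547 CPM and 590, 438 and 444 CPM. MT-CO1, of the same complex, rose by 0.44 and MT-ATP8, of ATP synthase, fell by 1.26 with P4 against control. The vehicle cultures were not alike for these genes, with replicate 1, the smallest library, the lowest in each of the 3 complex I genes, and the part of depth was not tested.

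**Figure D5:**
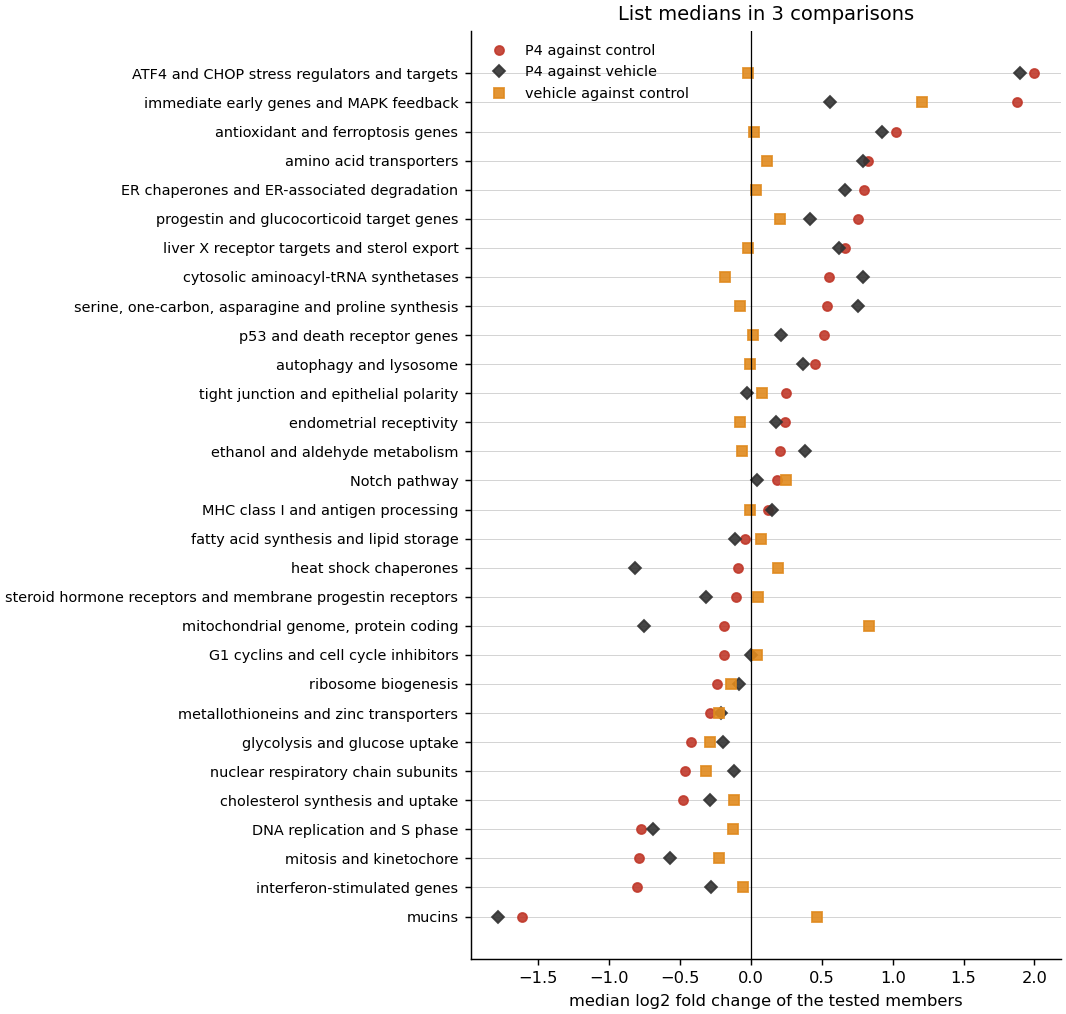
Median log2 fold change of the tested members of each gene list on the horizontal axis, for P4 against control, P4 against vehicle and vehicle against control, the first and second from the same P4 cultures. The medians of the ATF4 and CHOP list were 2.00, 1.90 and -0.02 in that order, and those of the mitochondrial genome -0.19, -0.75 and 0.84.

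Among the other groups, the nuclear respiratory chain genes were already lower in vehicle than in control for 18 of 24 (median -0.32), and against vehicle P4 gave 10 lower and 3 higher (median -0.12). Of the mitosis genes, 14 of 23 were lower in vehicle than in control, and 20 were lower in P4 than in vehicle. The heat shock chaperones had a median of -0.093 against control and -0.81 against vehicle, where 10 of 15 were lower. HSPA1B was higher in vehicle than in control (0.92), while HSPA1A missed the threshold there (0.90), and both were lower in P4 than in vehicle (-0.98 for HSPA1A and -0.93 for HSPA1B). Of 24 nuclear respiratory chain genes and 21 glycolysis genes, none was higher in vehicle than in control. For PGR and TXNIP, the vehicle had moved in the direction of P4 by -0.93 (adjusted p = 6.77e-08) and -1.39 (adjusted p = 0.000776) on the log2 scale. The difference was not called for TRIB3 (-0.08, adjusted p = 0.621), GDF15 (0.29, adjusted p = 0.316), MEOX1 (0.053, adjusted p = 0.782), CD55 (-0.10, adjusted p = 0.543) or HES6 (-0.14, adjusted p = 0.356).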

How the data were processed

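Ishikawa cultures were sequenced after 24 h as single-end 75 bp reads from a stranded total RNA kit. Per the study's methods, the authors trimmed reads with Cutadapt, kept those with a quality of at least 20 over 90% of bases, aligned them with Subread and deposited the raw count of uniquely aligned reads per gene (featureCounts, GENCODE 31). Tool versions and the strand setting are not given in the sources used here, and the authors' own tests used DESeq2. Of the 17 columns, 11 were used and 6, whose sample could not be settled from the labels, were not.

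Counts were tested with edgeR 4.0.16 (R 4.3.3, limma 3.58.1), using TMM normalization, filterByExpr with a minimum count of 10 and robust quasi-likelihood F tests in a separate fit for each pair of groups. P-values were adjusted by Benjamini-Hochberg over all genes tested, and genes with an adjusted p under 0.05 were called. The standard error is the log2 fold change divided by the square root of F. The p-values weigh the difference between groups against the spread between these cultures of 1 cell line. In simulated counts, 197 of 200 changed genes (98.5%) were recovered and 9 unchanged genes were called among 16683. The simulation gave every gene the same dispersion of 0.02, independent libraries and few changed genes. In the data 58.7% of protein-coding genes were called, so these values do not give the error rate of the test here. A floor of 3 counts per library was used for genes near 0. DESeq2 1.42.0, other normalizations and filters, thinning, a joint fit, a replicate block, Nap alone as the reference and leaving out each culture were the alternatives.

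The genes named by rule were the 4 markers, 8 called protein-coding genes at either end of the range of log2 fold changes (mean of at least 5 CPM, no overlap of P4 and control), the 5 that gained and the 5 that lost most CPM without mitochondrial genes, in each list the 2 members of lowest adjusted p among those called higher and likewise lower, and, for each of the 3 ways in which the references differed, the 4 genes highest and the 4 lowest in vehicle against control (mean of at least 5 CPM). Further list members were picked once their values had been seen. The comparison, its markers and the 30 gene lists were chosen with earlier results of these data known. Coordinates are on GRCh38 and promoters are from RefSeq (GRCh38.p14). Figures used matplotlib 3.10.9 under Python 3.11.15, with pandas 2.3.3 and numpy 2.4.6. Some genes that the rule names are not reported here.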

Additional observations from a re-analysis of the deposited data

How the results depend on the processing

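Of 2102 values of the 141 named genes under the alternatives, 2030 kept their direction and their side of the threshold, 58 (in 12 genes) lost the call, 5 gained it and 9 (in 5 genes) changed sign. The 5 genes with a change of sign were not called between P4 and control to begin with. On leaving out 1 culture, MT-ND5 ranged from -0.011 to 0.38, MT-ND2 from -0.016 to 0.46, KSR2 from -0.35 to 0.15, PRSS23 from -0.12 to 0.14 and CLK4 from -0.14 to 0.015, and PRSS23 was -0.020 with upper-quartile normalization. The lowest values of MT-ND5 and MT-ND2 were those without P4 replicate 2.

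P4 against control gave 7558 protein-coding DEGs, 6821 with DESeq2, 6245 after thinning to the smallest total and 8136 in a joint fit of 3 groups. Leaving out 1 culture gave 6315 to 7953. Upper-quartile normalization gave 7586, of which 45.7% were higher in place of 51.5%, and moved the median of all genes to -0.0528. For vehicle against control the range was 1563 to 3414, with 1620 without vehicle replicate 2 and 1563 without vehicle replicate 3. The alternatives for the genes that depend on the reference and for the gene lists were chosen after seeing the data. Genes called against vehicle only numbered 287 to 798, with 432, 310 and 287 without vehicle replicates 1, 2 and 3. Genes called in opposite directions numbered 24 with DESeq2, 28 after thinning and 16 to 45 on leaving out 1 culture, with 21 without vehicle replicate 2, 24 without vehicle replicate 3 and 16 without P4 replicate 3. The cause was not tested. Counts of list members that moved by more than 1.5 times included Notch genes that rose (8, and 5 after thinning), mitochondrial genome genes that rose (4, and 2 in the joint fit), ethanol and aldehyde genes that rose (3, with a range of 2 to 5) and liver X receptor targets that fell (1, at most 2). With Nap alone as the reference, 6 of the named genes lost the call (MT1X, STAT2, UTP15, MRPL46, TNNC1 and EME1).

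Groups share replicate numbers, but same-numbered P4 and control cultures did not deviate together (correlations -0.0861, -0.0932 and -0.0388), so the cultures were not treated as paired. With a replicate block, P4 against control gave 7260 DEGs, vehicle against control 3485 and P4 against vehicle 7602, and Nap alone against control 19, where none was called without it. Under the replicate block 4 named genes lost the call in edgeR's quasi-likelihood test, HSPA5 (adjusted p = 0.0763), GJA1 (0.0847), MRPL46 (0.0605) and EME1 (0.0835).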
